A study of Mus musculus with 10 samples.

Results

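Gsdmc2 and Gsdmc4 are the 2 members described here, out of 18022 genes listed over 10 plates of cells from crypts of the mouse small intestine. They were chosen by symbol after earlier results on these same tables had placed them in wells with transcripts of absorptive precursors, so their company with Car4, Reg3b, Apoa1, Mki67, Lgr5 and Muc2 is given below as a description with no test. Of the plates, 7 hold sorted single cells and 3 hold doublets or triplets of cells that were picked by mouth pipette after a milder dissociation, and each plate has 384 wells. All plates carry the strain label C57Bl/6 and no treatment, age or genotype is given. Titles of sorted replicates 1 to 5 carry the code GK5a, those of sorted replicates 6 and 7 the code GK5b, and picked plates the code JC, so code and group cannot be told apart. The labels do not say which plates came from separate animals, so the p-values below measure only the spread between plates, which may be technical.

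Gasdermins are proteins that lie inactive in the cytosol until a protease cuts them. The released N-terminal part then inserts into membranes and forms pores, which can lead to the lytic death called pyroptosis. Mice carry a cluster of closely related Gsdmc genes, which intestinal epithelium expresses, and interleukin-4 and interleukin-13 acting through STAT6 are known to raise them during type 2 immune responses. Cells of the absorptive lineage leave the Lgr5-positive stem cell zone at the crypt base, divide and then mature into enterocytes as they move towards the villus.

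Both members lie on the minus strand of chromosome 15 in GRCm38 (mm10), Gsdmc2 at chr15:63824346-63845177 and Gsdmc4 at chr15:63891264-63912297, per the GENCODE annotation. Gsdmc3 lies between them at chr15:63857724-63878558, and Gsdmc lies downstream of Gsdmc2 at chr15:63775968-63808759. The last 90 coding bases, stop codon included, are shown because they tell the 3 neighbours apart at few positions. They lie upstream of the transcript end, where the assay primes and where the genes differ more, as given after them. Capitals mark the 5 positions at which they are not all alike, and the stretches are chr15:63824878-63824967, chr15:63858271-63858360 and chr15:63891804-63891893 in the order printed.
Gsdmc2: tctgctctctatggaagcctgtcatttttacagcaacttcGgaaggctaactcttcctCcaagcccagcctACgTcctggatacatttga
Gsdmc3: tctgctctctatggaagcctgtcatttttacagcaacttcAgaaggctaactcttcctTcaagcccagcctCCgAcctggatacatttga
Gsdmc4: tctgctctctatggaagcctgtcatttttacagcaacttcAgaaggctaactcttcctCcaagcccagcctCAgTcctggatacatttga
Over the 1443 coding bases, Gsdmc2 was 93.0% identical to Gsdmc4 and 97.1% identical to Gsdmc3. In the last 300 bases of the annotated transcripts the identity was 84.9% with Gsdmc4 and 92.6% with Gsdmc3. Of 241 windows of 60 bases in that end of Gsdmc2, 11 (4.56%) were found unchanged in the Gsdmc4 transcript and 95 (39.4%) in the Gsdmc3 transcript. Reads from such windows cannot be assigned to 1 gene, so the split of counts between Gsdmc2 and Gsdmc3 is uncertain, and that between Gsdmc2 and Gsdmc4 is less exposed to this.

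Transcripts were counted by CEL-seq2, which primes on the poly(A) tail, sequences the 3′ end and marks every captured molecule by a random barcode. A well entered when its endogenous transcripts reached 1000, which left 1615 wells in sorted and 501 in picked plates. Sorted plates held from 1022859 to 4832581 transcripts in these wells and picked plates from 821829 to 1232614. The epithelial lists were present in all groups, with none of the 12 stem, 23 mature enterocyte, 12 goblet or 11 Paneth markers at 0. Picked plate 3 stands apart in both members, and results that rest on it are given with and without it. Xist, transcribed in females, was at 115 to 155 CPM (a gene's transcripts scaled to a fixed plate total) in picked and at most 0.978 CPM in sorted plates, so sex too cannot be told apart from group. No used well had the same profile as another well. No doublet caller was run.

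Both members were low in every plate but picked plate 3. Gsdmc2 was at 32.3, 21.4, 30.4, 39.0 and 17.4 CPM in sorted plates 1 to 5, at 8.90 and 11.6 CPM in sorted plates 6 and 7, and at 17.0, 30.4 and 216 CPM in picked plates 1 to 3. All 5 GK5a plates lay above both GK5b plates, and picked plates 1 and 2 fell within the range of the sorted plates. Gsdmc4 was at 38.1, 34.1, 55.7, 97.6 and 37.7 CPM in sorted plates 1 to 5, at 17.2 and 18.8 CPM in sorted plates 6 and 7, and at 20.3, 48.7 and 332 CPM in picked plates 1 to 3. The order was the same, with both GK5b plates lowest and picked plate 3 highest. Within a plate Gsdmc4 gave more transcripts than Gsdmc2, by a ratio with a median of 1.61 over the 10 plates. This ratio is of transcript counts from 3′ ends, for which no correction for length applies.

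**Figure D1:**
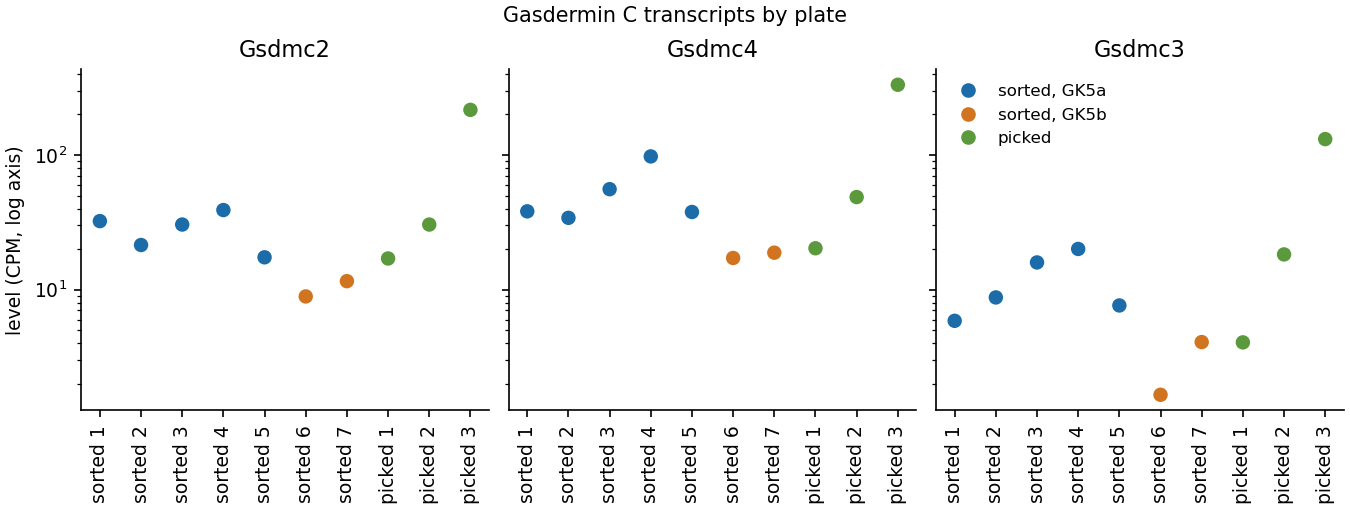
Levels of Gsdmc2, Gsdmc4 and Gsdmc3 in each plate, in CPM of the transcripts of used wells on a log axis, with 1 point per plate coloured by code. Picked plate 3 is the highest point in all 3 panels (216 CPM for Gsdmc2 and 332 CPM for Gsdmc4), and the 2 GK5b plates lie below the 5 GK5a plates.

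The other gasdermins were lower or followed another order. Gsdmc3, the neighbour that shares most sequence with Gsdmc2, was at 5.87 to 20.1 CPM in GK5a, 1.66 and 4.08 CPM in GK5b, and 4.06, 18.3 and 131 CPM in picked plates 1 to 3, so it too was highest in picked plate 3. Gsdmc reached at most 9.45 CPM, in picked plate 3, with 20 barcodes over the GK5a plates and 2 over the GK5b plates. Gsdmd, the gasdermin cut by inflammatory caspases, was at 73.1 to 99.4 CPM in GK5a, 43.7 and 57.3 CPM in GK5b and 48.7, 31.6 and 55.0 CPM in picked plates 1 to 3, without the rise in picked plate 3. Dfna5, an older name of Gsdme, was at 12.7 to 23.9 CPM in GK5a, 32.9 and 19.3 CPM in GK5b and 7.30 to 21.5 CPM in picked plates. Gsdma2 had 11 barcodes over the GK5a plates and 55 over the GK5b plates, and Gsdma, Gsdma3 and Dfnb59 had at most 5 barcodes in any plate.

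In sorted plates Gsdmc2 was detected in 148 and Gsdmc4 in 228 of the 1615 used wells, and 107 wells held both. Wells with Gsdmc2 held Gsdmc4 in 72.3% of cases, against 8.25% of wells without Gsdmc2. After each well was drawn down at random to 2000 transcripts, which removes the difference in depth and leaves out 181 shallower sorted wells and 118 shallower picked wells, 11 of 38 wells with Gsdmc2 (28.9%) also held Gsdmc4, against 66 of 1396 without it (4.73%). Gsdmc3 was also found with the members, in that 8 of 20 Gsdmc3 wells (40%) held one against 96 of 1414 other wells (6.79%). For Gsdmd the shares were close, with a member in 10 of 160 Gsdmd wells (6.25%) and in 94 of 1274 other wells (7.38%). A single transcript was the most common finding, in 84 of the 148 sorted wells with Gsdmc2. The richest sorted well held 11 Gsdmc2 and 39 Gsdmc4 transcripts.

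Fewer wells held a member in GK5b than in most GK5a plates, and far more did in picked plate 3. At 2000 transcripts per well a member was found in 8.33%, 3.83%, 10.8%, 11.1% and 12.0% of wells of sorted plates 1 to 5 and in 3.52% and 4.03% of wells of sorted plates 6 and 7. GK5b overlapped GK5a only through sorted plate 2. In picked plates 1 to 3 the share was 5.61%, 10.7% and 34.2%, and only the last lay outside the sorted range. Without thinning the shares were 12.2% to 23.2% in sorted plates and 17.2%, 14.5% and 46.5% in picked plates. The picked mean of 16.8% ± 15.2 (SD, n = 3) exceeded the sorted mean of 7.65% ± 3.78 (SD, n = 7) by 9.20 percentage points, with p = 0.233 in a two-sided exact permutation test over plates. Without picked plate 3 the difference was 0.525 percentage points (p = 0.778, exact permutation test). Between codes the means were 3.77% ± 0.365 (SD, n = 2) in GK5b and 9.20% ± 3.29 (SD, n = 5) in GK5a, with p = 0.190 in the same exact permutation test, which cannot go below 0.0952 with these numbers of plates.

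**Figure D2:**
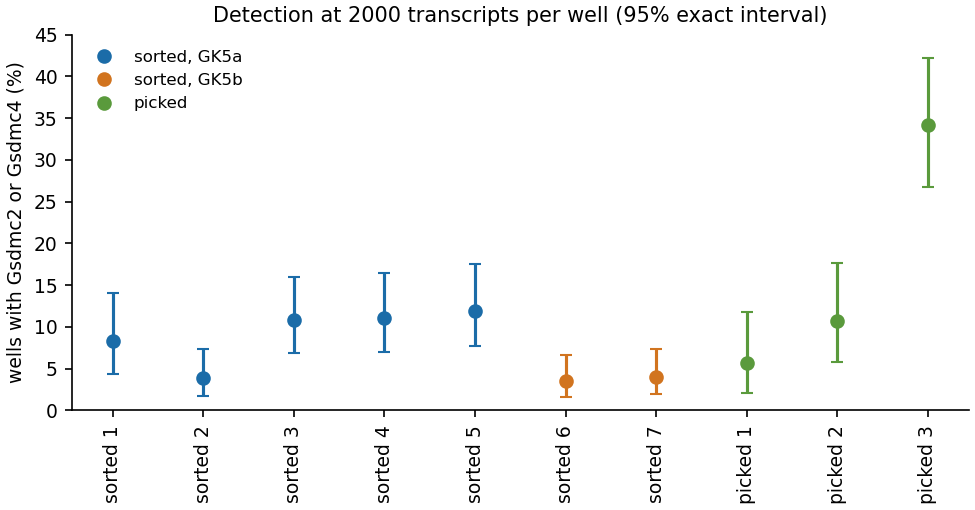
Percent of wells with at least 1 transcript of Gsdmc2 or Gsdmc4 in each plate after thinning to 2000 transcripts per well, with 95% exact binomial intervals that cover counting error only. Picked plate 3, at 34.2%, has an interval above those of all other plates, and the other 9 plates lie between 3.52% and 12.0%.

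Plate sums were compared with limma on log2(CPM + 1), with adjustment over all genes tested. Between picked and sorted plates 3136 of 10427 genes (30.1%) were called at an adjusted p under 0.05, 1503 higher and 1633 lower in picked plates. Neither member was among them. Gsdmc2 had a log2 fold change of 1.54 ± 0.61 (SE; 95% interval 0.21 to 2.86) with a limma adjusted p of 0.0760, and Gsdmc4 one of 1.24 ± 0.66 (−0.20 to 2.68) with 0.174. Picked plate 3 set the size of both: without it they were 0.53 and 0.17, with limma adjusted p of 0.422 and 0.830. Without picked plate 1 both were called, at 2.18 and 2.02 with limma adjusted p of 0.0300 and 0.0480, and with CPM averaged per well Gsdmc2 was called, at 2.19 with 0.0126. Of the 5 gasdermins tested none was called in this comparison, including Gsdmc3, whose log2 fold change was 1.79 with a limma adjusted p of 0.107. Gsdmc3 was called without picked plate 1 (0.0205) and with CPM averaged per well (0.0383), and Gsdmd, at −0.44, with library totals (0.0338) and against GK5a plates alone (0.0359).

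Within the sorted plates both members were lower in GK5b. Gsdmc2 fell by 1.28 ± 0.29 (SE) on the log2 scale with a limma adjusted p of 0.0120, and Gsdmc4 fell by 1.34 ± 0.34 with 0.0206. Here 1384 of 10641 genes (13.0%) were called and 707 (6.64%) were lower in GK5b. Of 6 gasdermins tested 4 were lower, the others being Gsdmc3, which fell by 1.62 with a limma adjusted p of 0.0345, and Gsdmd, which fell by 0.78 with 0.00774. Gsdmc2 and Gsdmc3 may share reads, so these are not independent counts. With sorted plate 6 left out, 291 genes were called and neither member was, at −1.16 and −1.33 with limma adjusted p of 0.174 and 0.188. Gsdmc3 and Gsdmd lost their calls as well, and over the 13 alternatives Gsdmc3 lost its call in 6 and Gsdmd in 1. With sorted plate 7 left out, Gsdmc4 lost its call (limma adjusted p = 0.0879), and so it did with no filter on low genes (0.0871), while Gsdmc2 lost its call when CPM was averaged per well (0.0718).

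Of the 6 partner genes followed in single wells, Car4 (−1.20, limma adjusted p = 0.0114), Apoa1 (−5.31, 5.91e-05) and Lgr5 (−1.62, 0.0330) were lower in GK5b and Muc2 (2.17, 0.000330) and Mki67 (0.83, 0.00945) higher, while Reg3b stood at 0.02 (0.966). None of the 6 was called between picked and sorted plates. Without sorted plate 6, Car4, Lgr5 and Mki67 lost their calls between codes (0.157, 0.496 and 0.280). Lgr5 was at 11.6 and 70.5 CPM in sorted plates 6 and 7 and at 72.4 to 115 CPM in GK5a, its log2 fold change was −0.42 without sorted plate 6, and it lost its call in 6 of 13 alternatives. Car4 lost its call in 3 of 13.

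Lists of cell markers moved with the code as well. Of the 23 mature enterocyte markers 21 were lower in GK5b, with a median log2 fold change of −1.79 against 0.00 over all genes, and their summed share of transcripts was 0.739% to 1.51% in GK5a plates and 0.303% to 0.334% in GK5b plates. Of 12 goblet markers 11 were higher in GK5b, at 1.12% to 1.84% of transcripts in GK5a and 4.10% to 6.46% in GK5b. Of 18 early absorptive markers, the list nearest to the wells described here, 8 were lower and 1 higher, with a median log2 fold change of −0.55, and their share was 1.18% to 1.44% in GK5a and 1.15% to 1.26% in GK5b. Of 7 tuft markers tested 5 were lower, from a list that summed to 40.7 to 587 CPM in GK5a plates and 4.55 and 22.0 CPM in GK5b plates. Over all genes tested 6.64% were lower and 6.36% higher in GK5b. In plate sums, fewer cells of a type and less RNA per cell cannot be told apart. Taken within wells that held Car4, the share with a member was 10.3% in sorted plate 2 and 23.1% to 34.4% in the other GK5a plates. It was 15% and 22.7% in GK5b plates, so after thinning the codes overlapped there through sorted plate 2. These shares rest on few wells, such as 3 of 13 in sorted plate 1 and 5 of 22 in sorted plate 7. Without thinning the GK5b shares were 44.1% and 42.1%, within the GK5a range of 32.1% to 51.5%. The GK5b wells with Car4 were deeper there. In wells without Car4 the thinned share was 2.78% to 7.24% in GK5a and 2.54% and 2.21% in GK5b. The part of the marker shift in the lower member levels of GK5b was not tested.

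Genes that act with gasdermins were followed through a list of 28 caspases, inflammasome parts and related genes. Of 24 tested, 4 were lower in GK5b, beside 6.64% of all genes tested, and none higher. Among them were Casp6 (−0.70, limma adjusted p = 0.00668), an executioner caspase, Nlrp6 (−1.0, 0.00998), an inflammasome sensor of gut epithelium, and Pycard (−0.65, 0.0337), the adaptor that joins sensors to caspase-1. Casp8, which can cut gasdermin C, stood at −0.01 with a limma adjusted p of 0.971, and was at 114 ± 7.97 CPM (SD, n = 5) in GK5a and 109 ± 1.63 CPM (SD, n = 2) in GK5b. Without sorted plate 6 Casp6, Nlrp6 and Pycard lost their calls, with limma adjusted p of 0.0531, 0.213 and 0.256. Over the 13 alternatives Pycard lost its call in 6 and Casp6 in 2. Between picked and sorted plates 4 of 23 were lower, beside 15.7% of all genes tested, and none was higher. Among these were Chmp4b (−0.39, limma adjusted p = 0.0238), which takes part in membrane repair, Hmgb1 (−0.60, 0.00463), a nuclear protein released by dying cells, and Naip6 (−0.78, 0.0151), of the NAIP family of inflammasome sensors. Of these 3 genes Hmgb1 alone kept its call with each plate left out: Naip6 lost its call without picked plate 1 or 2 (0.0665 and 0.0621), and Chmp4b without picked plate 2 or 3 (0.0756 and 0.0565). Casp8, at −0.29 with a limma adjusted p of 0.106, passed in 4 of 19 alternatives, which were library totals (−0.61, 0.00176), CPM averaged per well (−0.62, 0.0232), no filter on low genes (−0.37, 0.0416) and leaving out picked plate 1 (−0.41, 0.0359).

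The type 2 cytokine arm was represented by 22 listed genes, 17 of them in the tables. Il4ra, the receptor chain shared by interleukin-4 and interleukin-13, was at 23.9 to 33.7 CPM over the sorted plates and at 17.9, 20.7 and 15.5 CPM in picked plates 1 to 3. Il13ra1, its partner chain, was lower in picked plates by 1.22 on the log2 scale as fitted with the limma adjusted p of 0.00274, and stood at 13.8, 17.0 and 32.7 CPM in picked plates 1 to 3 against 47.5 to 81.4 CPM in sorted plates. Against GK5b plates alone it lost its call (0.0582). Stat6, the factor they act through, was at 60.9, 93.7 and 102 CPM in picked plates and 39.1 to 100.2 CPM in sorted plates, and passed neither test. Among genes known to answer this arm, Ang4, an antimicrobial ribonuclease of Paneth and goblet cells, was higher in picked plates by 3.30 on the log2 scale with a limma adjusted p of 0.00246. It was at 2947, 1113 and 1721 CPM in picked plates 1 to 3. Of the 11 Paneth markers 6 were also higher in picked plates, beside 14.4% of all genes tested, and the part of Paneth cell RNA in the Ang4 difference was not tested. Retnlb, a goblet cell product, was higher in GK5b by 3.12 with a limma adjusted p of 2.65e-07. It stood at 600.2, 0 and 55.2 CPM in picked plates 1 to 3. Of 12 goblet markers 11 were also higher in GK5b, beside 6.36% of all genes tested. The part of goblet cell RNA in the Retnlb difference was not tested. Of 13 genes of the type 2 list tested between groups 1 was higher and 1 lower, beside 14.4% and 15.7% of all genes. Of 15 tested between codes 1 was higher and none lower, beside 6.36% and 6.64% of all genes, so these counts lay near or below the background.

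Wells were then read one by one at 2000 transcripts each. In the 7 sorted plates a member was found in 104 of 1434 wells (7.25%). Of these 104 wells, 51 held Car4 (49.0%, against 11.7% of the other wells), 64 held Reg3b (61.5% against 41.3%), 12 held Apoa1 (11.5% against 8.05%), 25 held Mki67 (24.0% against 27.5%), 1 held Lgr5 (0.962% against 14.2%) and 30 held Muc2 (28.8% against 56.0%). The wells with a member had a median of 10448 transcripts before thinning and the others 9103.

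Car4, a carbonic anhydrase of the enterocyte surface, showed the widest difference of the 6 partners. In sorted plates 1 to 7 a member was found in 23.1%, 10.3%, 34.1%, 23.9%, 34.4%, 15% and 22.7% of the wells with Car4. In wells without it the shares were 6.87%, 2.78%, 4.40%, 6.94%, 7.24%, 2.54% and 2.21%. The share was higher with Car4 in all 7 plates, by 7.57 to 29.7 percentage points with a mean of 18.6 ± 7.82 (SD, n = 7). In all 7 plates wells with Car4 also had a higher median depth before thinning than wells without it. In sorted plate 1 it was 6563 against 4050 transcripts and in sorted plate 7 it was 16980.5 against 14094.5. Wells with 1 Car4 transcript held a member in 26 of 129 cases (20.2%), those with 2 to 3 in 19 of 57 (33.3%) and those with 4 or more in 6 of 20 (30%; 95% exact interval 11.9% to 54.3%). Without thinning the share was 45.4% with Car4 and 5.65% without.

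Reg3b, a secreted antibacterial lectin, went with the members more weakly. The difference was positive in all 7 sorted plates, from 2.25 to 20.2 percentage points, with a mean of 7.03 ± 6.25 (SD, n = 7). It lay in wells with much Reg3b: a member was found in 4.87% of 821 wells with none, 5.22% of 345 wells with 1 to 4 transcripts, 13.7% of 183 wells with 5 to 19 and 24.7% of 85 wells with 20 or more. With both Car4 and Reg3b present the share was 29.8% (37 of 124 wells), with Car4 alone 17.1% (14 of 82), with Reg3b alone 5.52% (27 of 489) and with neither 3.52% (26 of 739). The intervals of the first 2 classes overlap (22.0% to 38.7% and 9.66% to 27.0%, 95% exact).

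Apoa1, the apolipoprotein that mature enterocytes load onto lipid particles, showed no one direction over plates. The difference between wells with and without Apoa1 was positive in 2 and negative in 3 of the 5 sorted plates with at least 10 wells of each kind, with a mean of 1.25 percentage points and an SD of 8.51. With wells pooled by amount, a member was found in 11 of 71 wells with 1 to 9 Apoa1 transcripts (15.5%; 8.0% to 26.0%, 95% exact) and in 1 of 48 wells with 10 or more (2.08%; 0.0527% to 11.1%). Of those 48 wells 47 came from GK5a plates. Among wells with Car4 the share was 25.0% with Apoa1 (8 of 32) and 24.7% without (43 of 174).

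For Mki67, a marker of dividing cells, the difference was positive in 4 and negative in 3 of the 7 sorted plates, with a mean of −0.350 percentage points and an SD of 5.97. Among wells with Car4 a member was found in 12 of 48 wells with Mki67 (25.0%) and in 39 of 158 without (24.7%). Without thinning the mean difference was 10.6 percentage points.

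Lgr5, the stem cell receptor, was almost never found with a member. Only 1 of 190 sorted wells with Lgr5 held a member (0.526%; 0.0133% to 2.90%, 95% exact), against 103 of 1244 wells without it (8.28%). The difference was negative in all 6 plates with enough wells, from −14.6 to −4.41 percentage points. In each of these 6 plates wells with Lgr5 had a lower median depth before thinning than wells without it. In sorted plate 1 it was 3125 against 4360 transcripts and in sorted plate 7 it was 13879 against 14754. In sorted plate 6, which had only 4 wells with Lgr5, it was 22059 against 16748. Without thinning 29 of 393 wells with Lgr5 held a member (7.38%), against 19.6% of the others, and in 1 plate the difference was then positive.

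Muc2, the main mucin of goblet cells, was likewise found less often with a member. In the 6 sorted plates with enough wells of both kinds the difference ran from −9.21 to −1.24 percentage points. The share of wells with a member was 11.2% at 0 Muc2 transcripts (74 of 659), 5.76% at 1 to 9 (22 of 382), 2.25% at 10 to 49 (6 of 267) and 1.59% at 50 or more, where 2 wells held a member. In GK5b plates 464 of 504 wells held at least 1 Muc2 transcript, so presence alone told little there, but the share also went from 6 of 40 wells with none to 1 of 85 wells with 50 or more.

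**Figure D3:**
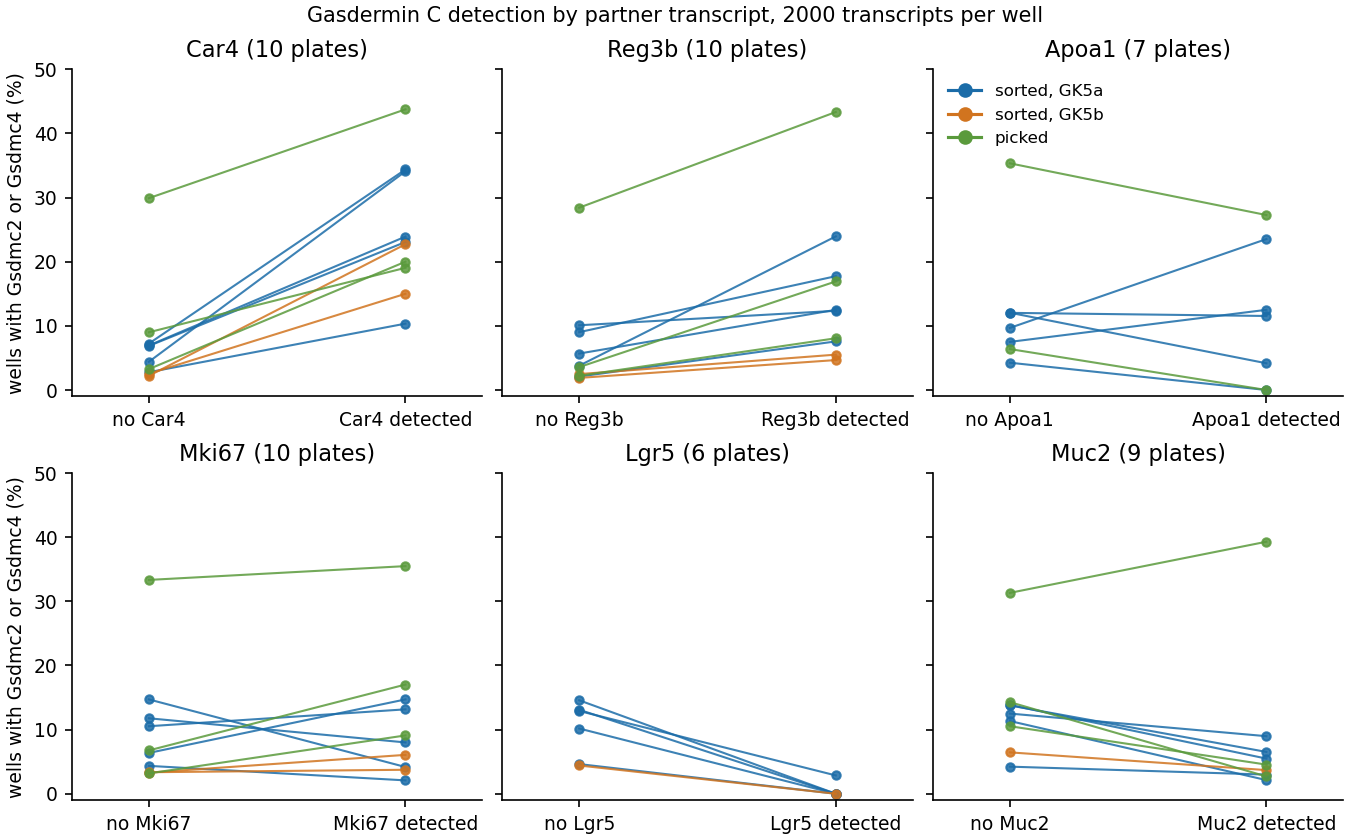
Percent of wells with Gsdmc2 or Gsdmc4 among wells without (left) and with (right) each partner transcript at 2000 transcripts per well, with 1 line per plate that has at least 10 wells of each kind. Lines rise for Car4 and Reg3b in all 10 plates and fall for Lgr5 in all 6 plates shown, while those for Apoa1 and Mki67 go both ways.

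The wells of each sorted plate were also ranked by their transcripts of the 23 mature enterocyte markers, which include Apoa1 but neither member, Car4 nor Reg3b, and put in 5 bins of equal size. The mean share of wells with a member over the 7 plates was 1.77% in bin 1, 2.06% in bin 2, 3.53% in bin 3, 12.1% in bin 4 and 19.0% in bin 5, the bin with most enterocyte transcripts. The rise at bin 4 lay in GK5a, with a mean of 16.2% there and 1.98% in GK5b, while bin 5 stood at 21.8% and 12.0%. Bin 5 exceeded bin 1 in all 7 plates, by 9.76 to 32.6 percentage points with a mean of 17.2 ± 9.39 (SD, n = 7). Bins 4 and 5 held 33.8% and 51.0% of the member transcripts. Over the same bins the share of wells with Lgr5 went from 22.6% to 1.41%, that with Car4 from 2.01% to 39.8% and that with Mki67 from 24.4% through 32.6% in bin 4 to 14.5% in bin 5.

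With 10 bins the codes took different shapes. In the 5 GK5a plates the mean share was 13.3%, 19.1%, 28.8% and 14.8% in bins 7 to 10, and 3 of the 5 plates had a lower share in bin 10 than in bin 9, 1 the same and 1 a share of 10% against 9.52% (2 wells in each). Bin 10 of GK5a held a mean of 144 enterocyte transcripts per well and Apoa1 in 80.5% of wells, against 20.7 and 12.1% in bin 9. In the 2 GK5b plates the share was highest in bin 10, at 18.5%, and bin 10 there held only 25.1 enterocyte transcripts per well and Apoa1 in 10.4% of wells. On these means bin 10 in GK5b had about the enterocyte content of bin 9 in GK5a, but its 2 plates differed. Sorted plate 6 held 19.0 enterocyte transcripts per well there and Apoa1 in 0% of wells, and sorted plate 7 held 31.1 and 20.8%. Muc2 was in 89.8% of wells of bin 10 in GK5b and in 22.6% of bin 9 in GK5a. The part of enterocyte content in the different shapes was not tested. The 10 bins hold 14 to 26 wells per plate, so single values have wide counting error.

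**Figure D4:**
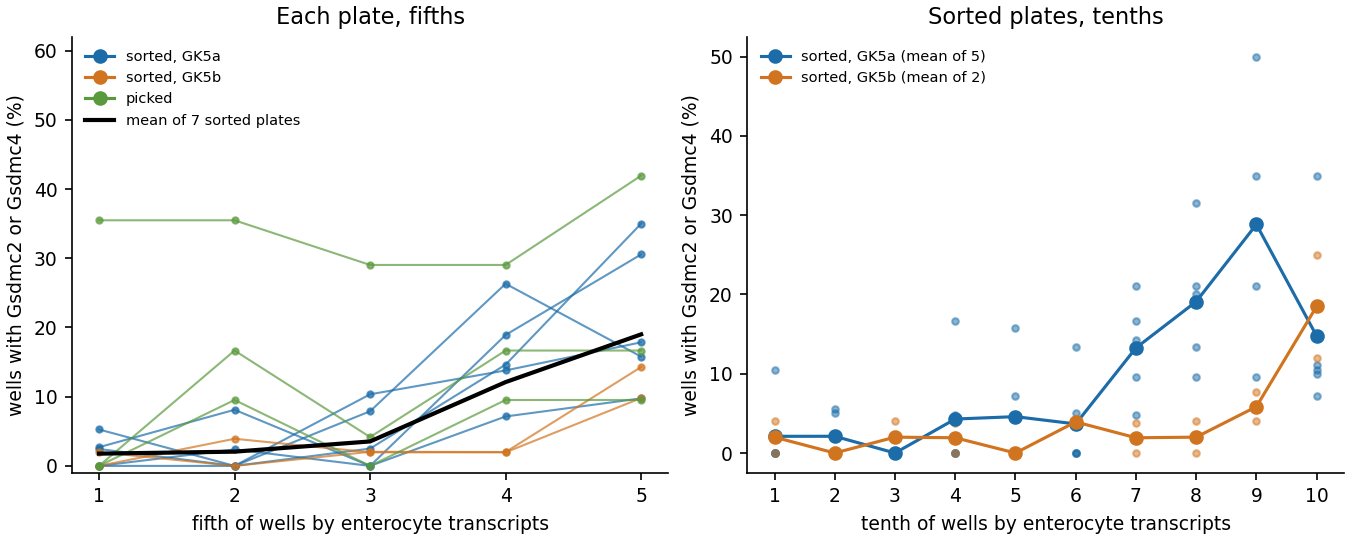
Percent of wells with Gsdmc2 or Gsdmc4 by bin of mature enterocyte transcripts at 2000 transcripts per well. The left panel gives 5 bins for each plate and the mean of the 7 sorted plates, which goes from 1.77% to 19.0%, with picked plate 3 near or above 29.0% throughout. The right panel gives 10 bins for sorted plates, with points for plates and lines for means, which peak in bin 9 for GK5a (28.8%) and in bin 10 for GK5b (18.5%).

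Picked plate 3 differed from this pattern. A member was found in 35.5%, 35.5%, 29.0%, 29.0% and 41.9% of its wells in bins 1 to 5, so wells poor in enterocyte transcripts held members about as often as the rest. The members were found in 43.8% of its wells with Car4 and in 29.9% of those without, and in 43.3% with Reg3b and 28.4% without. They were found in 39.3% with Muc2 and in 31.3% without, and in 2 of 9 wells with Lgr5 against 34.9% without. With Muc2 the 95% exact interval was 26.5% to 53.2%, which includes the share without it. The bins rank wells by mature enterocyte markers, so whether the label of absorptive precursors describes that plate was not tested. Car4 and Reg3b differed in the same direction as in sorted plates. Lgr5 did so only after thinning and over few wells. Without thinning a member was found in 12 of 23 wells of picked plate 3 with Lgr5 (52.2%), against 45.8% of those without. Picked plates 1 and 2 were nearer to the sorted plates, with a member in 7 of 36 wells with Car4 (19.4%) and in 12 of 192 without (6.25%), and in 5 of 125 wells with Muc2 (4.00%) and in 14 of 103 without (13.6%). A picked well holds several cells, so transcripts found together there need not come from 1 cell.

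A few wells carried much of the total in picked plate 3. Its richest well held 67 Gsdmc2, 99 Gsdmc4 and 72 Gsdmc3 transcripts among 36656, which was 26.1% of the member transcripts of the plate, and with them 174 Muc2, 24 Car4, 17 Mki67, 1 Reg3b and no Lgr5 or Apoa1 transcripts. The richest wells of the sorted plates held 11 to 50 member transcripts, with 11 to 46 Car4 and 29 to 1161 Reg3b transcripts, and 8.46% to 26.4% of their plate's member transcripts. The mature enterocyte markers made up 0.800% of transcripts in picked plate 3 against 0.343% and 0.305% in picked plates 1 and 2, and the Paneth markers 0.729% against 6.83% and 2.75%. The part of these shares in the member levels of picked plate 3 was not tested.

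Genes were then ranked by likeness to the members, measured as the Pearson correlation over the wells of a plate between log2(thinned transcripts + 1) of the gene and of Gsdmc2 plus Gsdmc4, averaged over the 7 sorted plates, among 6036 genes found in at least 5% of the 1434 wells. All correlations were weak, as sparse counts give, and wells of a plate share a library, so they are given as a description only. The highest were Coro2a (0.304), a coronin that binds actin, Apol10a (0.283), Mgat4c (0.255), Krt19 (0.251), Dmbt1 (0.250), Car4 (0.240), Pycard (0.235), Ms4a18 (0.234), Krt8 (0.233), Reg3g (0.220), Cdh17 (0.214), St3gal4 (0.210), Enpep (0.209), Ccl25 (0.208) and Maoa (0.207). Krt19 and Krt8 are epithelial keratins, Dmbt1 a secreted scavenger receptor of mucosa, Reg3g a lectin like Reg3b, Cdh17 the liver-intestine cadherin, Enpep a brush border peptidase and Ccl25 the chemokine of the small intestine. Between them 13 of the 15 were positive in every sorted plate, and the next gene, Gna11, stood at 0.207. Reg3b itself ranked 20 with 0.196.

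As shares of wells, a member was found in 72 of 348 sorted wells with Coro2a (20.7%) against 2.95% of those without, in 58 of 228 with Apol10a (25.4% against 3.81%) and in 26 of 72 with Mgat4c (36.1% against 5.73%). For Pycard, the inflammasome adaptor, it was 87 of 653 (13.3%) against 2.18%. Of the 28 caspase and inflammasome genes 17 were common enough to rank, with a median correlation of 0.02 against 0.00 over all genes, and only Pycard was among the 15 highest. Casp8 stood at −0.00, Nlrp6 at 0.05, and Casp6 at 0.08. Gsdmd, the one other gasdermin common enough to rank, was at −0.03.

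At the other end stood Slc12a2 (−0.191), Hopx (−0.151), Cd24a (−0.151), Smoc2 (−0.124), Rnase4 (−0.121), Muc2 (−0.120), Hepacam2 (−0.118), Spink4 (−0.115), Sox9 (−0.114), Klf4 (−0.114), Agr2 (−0.114), Tff3 (−0.112), Stmn1 (−0.109), Limk2 (−0.107) and Selm (−0.107). Of these, 4 are in the goblet list (Muc2, Tff3, Agr2 and Spink4), 3 in the stem list (Slc12a2, Smoc2 and Sox9) and 1, Stmn1, in the proliferation list. All 8 stem genes, all 11 goblet genes and all 7 Paneth genes that could be ranked were negative, against 50.8% positive over all genes. Of 18 ranked proliferation genes 2 were positive, with a median correlation of −0.03. Of 17 ranked early absorptive genes 14 were positive, as were 14 of 16 mature enterocyte genes. Between them these lists include Car4, Reg3b, Apoa1, Mki67, Lgr5 and Muc2, whose pattern was known when the members were chosen.

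The picked plates took no part in this ranking. There 13 of the 15 highest genes had a positive mean correlation over the 3 plates, beside 51.5% of all genes ranked, and 7 were positive in each plate, while Enpep (−0.01) and Ccl25 (−0.04) were not positive on average. Of the 15 lowest 12 were negative on average, and Sox9, Hopx and Stmn1 were not. Krt8 (0.172), Dmbt1 (0.173) and Krt19 (0.164) had the highest means there.

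**Figure D5:**
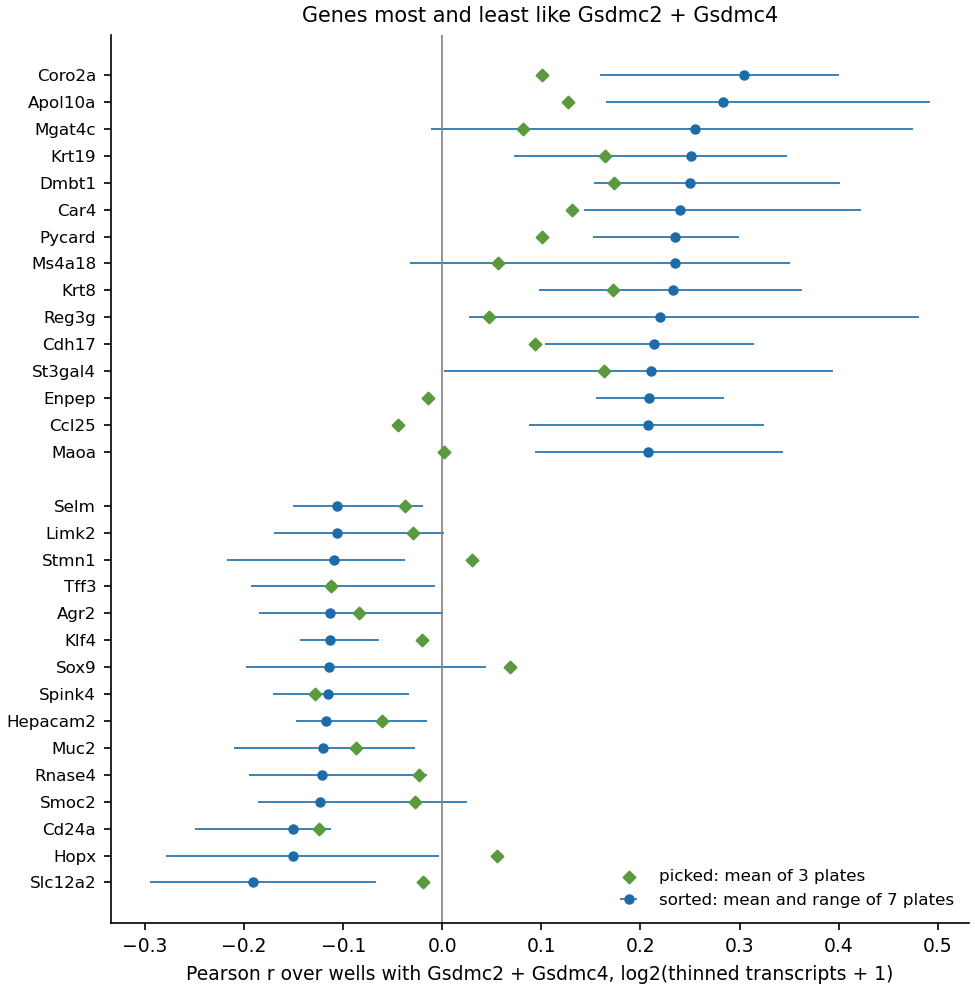
Pearson correlation over wells with Gsdmc2 plus Gsdmc4 for the 15 highest and 15 lowest genes, with the mean and range of the 7 sorted plates and the mean of the 3 picked plates. Coro2a is highest at 0.304 and Slc12a2 lowest at −0.191 in sorted plates, and picked means lie closer to 0 for most genes.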

How the data were processed

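Small-intestinal crypt cells were profiled in 10 CEL-seq2 plates. BWA 0.6.2-r126 and mm10 are named in the submitters' processing notes, while the treatment of reads shared by genes is not given in the sources used here. Values deposited by the authors are molecule estimates per gene and well, neither whole counts nor normalized, so a log-scale test was used in place of a count model. In every plate 100% of them map back to whole barcode counts within 0.001 over 4096 barcodes. Groups came from sample titles. The members, gene lists and tests were chosen with earlier results of these data known.

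Values of wells with at least 1000 transcripts, spike-ins left out, were summed per plate, scaled by trimmed mean of M values, and log2(CPM + 1) was tested by limma 3.58.1 in R 4.3.3 (lmFit, eBayes with trend, Benjamini-Hochberg). Genes needed 10 transcripts, scaled to the median plate, in 3 plates (2 between codes) and 15 in sum. Fold changes on this scale understate those of low genes. Wells were thinned to 2000 whole barcodes without replacement (seed 20), and differences in share used plates with at least 10 wells of each kind. Transcripts of the GENCODE annotation were aligned with Biopython 1.88. Named genes were the members, the 6 partners, all gasdermins, the 15 genes most and the 15 least like the members, and from the caspase and type 2 lists each gene called in either comparison with Casp8, Il4ra, Il13ra1 and Stat6, except 1 gene that is not reported here. The limma step was tested on simulated data. Depth was 1022859 to 4832581 transcripts per sorted plate and 821829 to 1232614 per picked plate, and intervals cover counting error only. Alternatives were other scaling, pseudocounts, filters, depths and left-out plates.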

Additional observations from a re-analysis of the deposited data

Results flagged for a closer look

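Gsdmc was at 5.15 CPM in sorted plate 3, set apart from the other 6 sorted plates. In the same plate the share of wells with a member was 20.2 percentage points higher with Reg3b than without, again apart from the other sorted plates. With 22 sets of plate values checked, about 1 in 20 would stand apart by chance, and 2 did.

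Wells below 1000 transcripts, which no comparison used, also held members. There were 5 barcodes of Gsdmc2 or Gsdmc4 in 160 such wells of sorted plate 4, 4 in 205 wells of picked plate 2 and 6 in 184 wells of picked plate 3. These were flagged because each was above a preset mark of 3 barcodes, which is not a background level. On the CPM scale of these wells that was 127, 119 and 248, beside 137, 79.1 and 549 in the used wells of the same plates. The other 7 plates held from 0 to 2 such barcodes.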

How the results depend on the processing

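Both members kept the sign of their log2 fold changes under every alternative run. Between groups no alternative brought the detection shares past 0.05 in the exact permutation test (p from 0.0667 to 0.778). Between codes that test could not pass 0.05 under any alternative, because it cannot go below 0.0952 with these plates. It reached 0.0952 at 4000 transcripts per well, with shares of 8.26% and 5.17% in GK5b plates and 9.62% to 23.3% in GK5a plates. Between picked and sorted plates 1455 genes were called against the GK5b plates alone, and with library totals in place of trimmed means 859 were higher and 3422 lower, where the median of all genes moved from −0.07 to −0.39. Between codes the count ran from 291 to 1624 with 1 plate left out. The mean Car4 difference was 8.29 percentage points at 1000 transcripts per well, 28.3 at 4000, 38.2 unthinned, 3.36 for at least 2 member transcripts and 29.2 for at least 3 Car4 transcripts. The difference between bins 5 and 1 was 8.54 at 1000 and 26.8 at 4000. The Reg3b difference was 13.7 at 4000, 17.4 unthinned and 1.27 for at least 2 member transcripts, that of Lgr5 −4.03 at 1000, −15.0 at 4000 and −2.51 for at least 2, and that of Muc2 −1.48 for at least 2. The Apoa1 difference turned negative for at least 2 member transcripts (−0.290), at least 3 Apoa1 transcripts (−3.04), in a second thinning draw (−1.74) and in picked plates (−7.22), and, with 1 plate left out, ran from −1.91 to 3.53. The Mki67 difference turned positive at 1000 (1.01), unthinned (10.6), for at least 3 Mki67 transcripts (1.17), in picked plates (6.11) and ran from −1.80 to 1.35 with 1 plate left out. The cause of these turns was not tested. Of log2 fold changes that passed no test as first fitted, that of Dfna5 turned to 0.12 when CPM was averaged per well and 0.054 against GK5a alone and ran from −0.42 to 0.30 with 1 plate left out, Gsdmd turned to 0.14 against GK5b alone, and Il4ra to 0.082 when CPM was averaged per well in the picked comparison. Il4ra was called there with library totals (−0.59) and Stat6 with CPM averaged per well (0.81). Between codes Casp8 turned to 0.0056 with no filter and 0.034 in wells of at least 2000 transcripts, and Il4ra to −0.021 with library totals. With 1 plate left out Casp8 ran from −0.082 to 0.067, Il13ra1 from −0.30 to 0.010, Il4ra from −0.010 to 0.090 and Stat6 from −0.12 to 0.31. The second thinning draw, the 10 bins, the splits by code and the picked plates were chosen after seeing the data. No paired analysis was possible because the numbers of the picked plates only name them in accession order and nothing ties them to a sorted plate. Depth and the low level of the members limit the co-detection.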
